A study of Mus musculus with 48 samples.

Results

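The comparison described here set the heat response of the mammary gland against that of the hypothalamus in the same lactating mice, gene by gene. For each gene the quantity was the heat change in mammary gland minus the heat change in hypothalamus, each heat change being heat minus control on the log2(FPKM + 1) scale, where FPKM counts fragments relative to the length of the gene and the size of the library. Genes entered where their mean FPKM was at least 1 in both tissues, which left 10069 of the 58913 genes listed. A further 3888 genes reached that level only in hypothalamus and 2518 only in mammary gland, and they were not compared between the tissues. The lowest mean levels that entered were 1.0008 FPKM in hypothalamus and 1.0006 FPKM in mammary gland. The choice used only the mean level, taken over heated and control libraries together. It was therefore not independent of the response to heat, which could bring a gene in or keep it out. In hypothalamus, Hspa1a averaged 0.906 FPKM in control and 10.1 FPKM in heated libraries, and Csn1s2a 0.261 and 4.50 FPKM. Lcmt2 went the other way, with 1.66 FPKM in control and 0.953 FPKM in heated hypothalami.

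RNA was sequenced from ICR mice, an outbred laboratory strain, aged 10 weeks and at day 13 of lactation. Heated dams were kept at 36 °C and control dams at 25 °C, all at 55% relative humidity, and the labels do not say for how long. There were 8 libraries each of heated mammary gland, control mammary gland, heated hypothalamus and control hypothalamus. Both tissues are mixtures of cells, so fewer cells of a type and less RNA per cell cannot be told apart in any value below. Recovered fragments on annotated genes ranged from 11586400 to 17809300 per mammary library and from 16272700 to 22166100 per hypothalamus library.

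The mammary gland at this stage is dominated by epithelium that secretes milk protein, lactose and fat, and the hypothalamus is the brain region that senses and controls body temperature. When cells are warmed, heat shock factor 1 can bind repeated nGAAn units in promoters and switch on chaperones, the proteins that keep other proteins folded. Heat stress is also known to release glucocorticoid hormone, whose receptor acts on genes in most tissues.

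The labelled tissues carried their own markers. The summed level of 14 neuron markers was 1.10 to 2.09 FPKM in heated and 0.777 to 1.76 FPKM in control mammary glands, against 603 to 722 FPKM in heated and 605 to 766 FPKM in control hypothalami. The summed level of 10 luminal epithelium markers was 544 to 914 FPKM in heated and 655 to 896 FPKM in control mammary glands, and 8.26 to 27.3 FPKM in heated and 7.87 to 11.1 FPKM in control hypothalami. Mammary libraries did not all hold the same cells. T cell markers summed to 98.7 to 195 FPKM in heated glands 4, 5, 6 and 8 and to 174 FPKM in control gland 5, and to 1.39 to 3.97 FPKM in the other 11 mammary libraries. B cell markers split the same libraries, with 43.7 to 69.5 FPKM in the 4 heated glands, 59.8 FPKM in control gland 5 and 2.04 to 4.66 FPKM elsewhere. More heated than control glands were therefore rich in lymphocyte RNA, and calls of named genes that were lost without these 5 libraries are marked as such.

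More genes passed for a heat change in mammary gland than in hypothalamus. The difference between the heat changes passed an adjusted p of 0.05 (limma, linear models with a moderated variance, Benjamini-Hochberg adjustment over all 10069 genes) for 123 genes, 1.22% of those tested. The mammary change was the higher one for 47 genes (0.467%) and the lower one for 76 (0.755%). With dam pairing in the model, the mammary gland and hypothalamus of the same treatment and number formed a block. The labels do not give the dam, so the number was taken to stand for it. The count was then 216, with 92 above 0 and 124 below, and 116 of the 123 genes were among them. At an unadjusted p under 0.05 there were 1181 genes.

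The 47 genes with the higher mammary change had a median difference of 0.83, made up of a median change of 0.99 in mammary gland and 0.13 in hypothalamus. The 76 with the lower mammary change had a median difference of -0.60, made up of -0.54 in mammary gland and 0.06 in hypothalamus. Over all 10069 genes the median difference was -0.02. Of the 47 genes, 44 changed by less than 0.5 in either direction in hypothalamus, as did 75 of the 76. A difference of at least 1 log2 unit was reached by 23 of the 47 and by 7 of the 76. All 123 differences had the same sign in libraries numbered 1 to 3 and in those numbered 4 to 8. Both sets went into the calls, so this is not independent support. Libraries 1 to 3 alone gave 5 genes, 2 of them among the 123, and libraries 4 to 8 alone gave 143, 68 of them among the 123. The sets also differ in size, with only 3 libraries per group in numbers 1 to 3. All 5 lymphocyte-rich glands are in numbers 4 to 8, so set, size and lymphocyte content cannot be told apart.

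Most of these genes had a heat change past the threshold in mammary gland and not in hypothalamus. In the fit of all 32 libraries, 46 of the 47 and 71 of the 76 fell in that class, 1 of each passed in both tissues in the same direction, and 4 of the 76 passed in neither. No gene among the 123 passed in both tissues with opposite signs. The background for these single-tissue calls was 1401 genes (13.9%) in mammary gland and 10 genes (0.0993%) in hypothalamus. That fit uses 1 spread for both tissues, although the median residual SD was 0.228 in mammary gland and 0.179 in hypothalamus. Fitted alone, the 16 mammary libraries gave 612 genes (6.08%) and the 16 hypothalamus libraries 98 genes (0.973%). Of these, 48 genes passed in both tissues, all 48 in the same direction, and 10 of the 48 were among the 123 whose changes differed. By these separate fits, 38 of the 47 and 64 of the 76 passed in mammary gland alone. In neither tissue passed 1 of the 47 and 9 of the 76, and 1 of the 76 passed in hypothalamus alone.

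**Figure D1:**
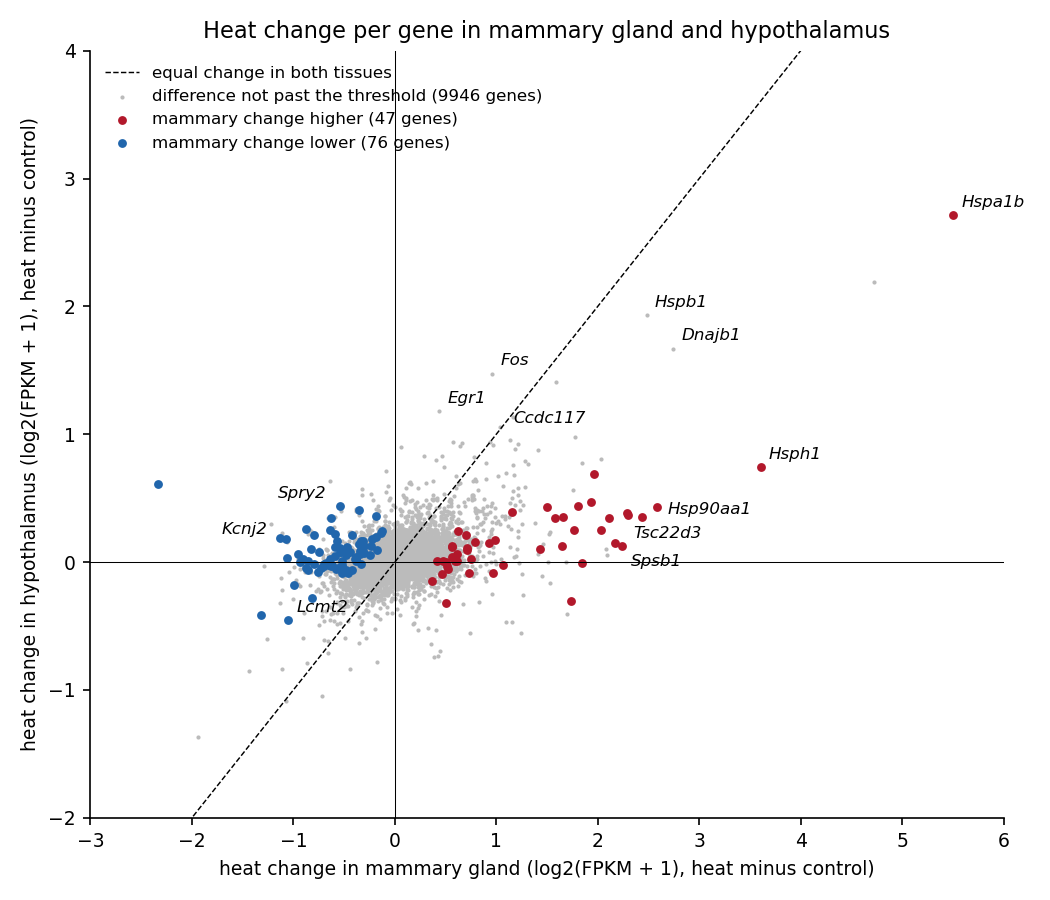
Heat change of each of 10069 genes in mammary gland (x axis) and hypothalamus (y axis), both as heat minus control on the log2(FPKM + 1) scale, with 8 libraries per group. Red points are the 47 genes with the higher mammary change and blue points the 76 with the lower one. Nearly all coloured points lie close to the horizontal line at 0, and Hspa1b, with 5.50 in mammary gland and 2.71 in hypothalamus, lies farthest from it.

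Chaperones led the genes with the higher mammary change, and 3 of them have 2 units of the heat shock element just upstream of the gene. This is no trait of the group, since 11.4% of windows of genes with the higher mammary change held this motif. The share was 9.61% for tested genes and 12.9% for all windows. The sequences shown are those of Hsph1, Hspa1b, Dnaja1 and Hspb1, all of which hold a match, while windows without a match are not shown. Each is the 250 bases before the start of transcription in RefSeq (mouse build GRCm38.p6), 5′ to 3′ on the strand of the gene, with GAANNTTC or TTCNNGAA, 2 units facing each other, in capitals for the fixed letters. Hsph1 lies on the minus strand at chr5:149636337-149636586, Hspa1b on the minus strand at chr17:34959239-34959488, Dnaja1 on the plus strand at chr4:40722218-40722467 and Hspb1 on the plus strand at chr5:135887669-135887918.
Hsph1: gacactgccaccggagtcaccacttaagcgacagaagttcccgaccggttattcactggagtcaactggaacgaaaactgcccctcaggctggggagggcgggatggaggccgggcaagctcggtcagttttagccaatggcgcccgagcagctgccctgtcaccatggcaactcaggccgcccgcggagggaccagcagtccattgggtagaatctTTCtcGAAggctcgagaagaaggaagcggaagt
Hspa1b: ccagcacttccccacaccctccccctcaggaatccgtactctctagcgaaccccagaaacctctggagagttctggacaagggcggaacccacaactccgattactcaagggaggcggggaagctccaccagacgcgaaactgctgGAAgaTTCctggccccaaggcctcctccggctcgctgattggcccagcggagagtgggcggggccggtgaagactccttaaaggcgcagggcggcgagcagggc
Dnaja1: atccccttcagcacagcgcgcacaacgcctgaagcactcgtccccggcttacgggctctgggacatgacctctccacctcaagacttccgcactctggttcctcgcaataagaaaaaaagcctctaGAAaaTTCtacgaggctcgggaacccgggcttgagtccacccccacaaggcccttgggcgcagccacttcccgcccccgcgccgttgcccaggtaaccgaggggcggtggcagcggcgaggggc
Hspb1: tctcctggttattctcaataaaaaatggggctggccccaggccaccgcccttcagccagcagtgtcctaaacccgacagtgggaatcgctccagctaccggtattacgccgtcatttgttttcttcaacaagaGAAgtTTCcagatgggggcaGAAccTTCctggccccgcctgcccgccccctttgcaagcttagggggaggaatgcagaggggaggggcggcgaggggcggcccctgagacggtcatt
The match began 33 bases before the start in Hsph1, 104 in Hspa1b and 124 in Dnaja1, and at 117 and 97 in Hspb1, whose difference between tissues did not pass. The windows of Stip1, Dnajb1 and Serpinh1 held no match. Hspa8, Hsp90aa1 and Hsp90ab1 were not among the genes with a match either, though not every gene had a listed window.

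Such letters are found before many genes. Promoters were listed for 93 of the 120 genes with a symbol among the 123. The 2-unit motif, searched on both strands, was in 4 of 35 windows of genes with the higher mammary change (11.4%: Dnaja1, Hspa1b, Hsph1 and Sema4b), in 4 of 58 of those with the lower one (6.90%), in 9.61% of the 7272 tested genes with a window and in 12.9% of all 27025 windows. The 3-unit motif, which is GAANNTTC followed by NNGAA or TTCNNGAA followed by NNTTC, overlaps the 2-unit one and was in 0 of 35 and 0 of 58 windows and in 0.4% of all. The glucocorticoid element, AGAACA and TGTTCT with 3 bases between them, was in 0 of 35 and 0 of 58, and in 1 window of all. The E-box CACGTG, which clock proteins among others bind, was in 3 of 35 (8.57%) and 4 of 58 windows (6.90%), in 9.255% of those of the tested genes and in 6.05% of all. A match describes letters in this window only.

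Hsph1 (ENSMUSG00000029657), a large chaperone that recharges HSP70, showed the largest difference of any named gene. Its level, scaled within tissue like all FPKM below, was 23.4, 127 and 431 FPKM (lowest, median and highest of 8) in heated mammary glands, against 5.92, 8.59 and 22.7 FPKM in control glands. In hypothalamus it was 50.8, 69.0 and 82.1 FPKM with heat and 33.3, 37.3 and 51.1 FPKM without. In FPKM, control mammary glands thus held less of it than control hypothalami, and heated glands mostly more. FPKM were scaled within each tissue only, so levels are not matched between tissues. Caseins summed to 183919 to 373378 FPKM in mammary libraries and to at most 93.0 FPKM in hypothalamus. The mammary groups did not overlap, which with heat on top held for 0.646% of all genes, although heated gland 3, at 23.4 FPKM, stood next to control gland 6, at 22.7 FPKM. The hypothalamus groups overlapped by 1 value on each side. The change was 3.61 ± 0.35 (SE) in mammary gland and 0.74 ± 0.35 in hypothalamus, a difference of 2.86 ± 0.49 (limma adjusted p = 0.0018). The hypothalamic change alone had an adjusted p of 0.0029 in the hypothalamus libraries fitted by themselves.

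Hspa1b, the stress-inducible HSP70, rose in both tissues and still differed between them with the higher mammary change, the 1 gene to do so in the fit of all 32 libraries. With each tissue fitted alone 8 genes did, Hsph1, Tsc22d3, Hspa8 and P4ha1 among them. It measured 35.8, 431 and 856 FPKM in heated and 1.70, 6.62 and 9.66 FPKM in control mammary glands, and 10.8, 39.4 and 101 FPKM in heated and 2.95, 4.50 and 8.43 FPKM in control hypothalami. Every heated library lay above every control library in both tissues; in hypothalamus that held for 0.457% of genes. The mammary change of 5.50 ± 0.47 exceeded the hypothalamic one of 2.71 ± 0.47 by 2.79 ± 0.66 (limma adjusted p = 0.0263). Without the 5 lymphocyte-rich glands the difference was 1.96 (adjusted p = 0.303). Its near-identical neighbour Hspa1a had a like difference, 2.53 ± 0.75, that did not pass (adjusted p = 0.0914) but did with dam pairing (adjusted p = 0.0073). Reads of these 2 copies could have been split between them, and 19.0% of the exon length of Hspa1a is shared with an antisense gene, so the pair is uncertain as single genes.

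A constitutive chaperone also had the higher mammary change. Hspa8, the HSP70 that unstressed cells use, measured 156, 341 and 793 FPKM in heated and 64.4, 80.9 and 175 FPKM in control mammary glands, against 119, 131 and 146 FPKM and 95.9, 108 and 122 FPKM in heated and control hypothalami. The mammary overlap came from control gland 6, at 174.6 FPKM, which lay above heated gland 3, at 155.6 FPKM. The difference was 1.78 ± 0.29 (limma adjusted p = 0.0011), and 1.28 without the lymphocyte-rich glands (adjusted p = 0.015).

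Both HSP90 genes had the higher mammary change. Hsp90aa1, the inducible form, measured 109, 349 and 1331 FPKM in heated and 52.8, 65.7 and 110.4 FPKM in control mammary glands, and 274, 299 and 365 FPKM in heated and 185, 208 and 293 FPKM in control hypothalami. Its FPKM without heat was thus higher in hypothalamus, though levels are not matched between tissues. The change was 0.43 ± 0.30 in hypothalamus, against 2.58 ± 0.30 in mammary gland. The difference was 2.16 ± 0.43 (limma adjusted p = 0.0067). Hsp90ab1, the constitutive form, differed by 1.51 ± 0.27 (limma adjusted p = 0.0023), from changes of 1.76 in mammary gland and 0.25 in hypothalamus.

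Other members of the chaperone list had the higher mammary change as well. Dnaja1, an HSP40 that feeds clients to HSP70, differed by 1.46 ± 0.28, with changes of 1.93 and 0.47 in mammary gland and hypothalamus (limma adjusted p = 0.0043). Stip1, which links HSP70 to HSP90, differed by 1.30 ± 0.30, with 1.65 and 0.36 (limma adjusted p = 0.0233). Neither passed without the 5 lymphocyte-rich glands, and Stip1 did not with a lymphocyte marker score in the model.

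Over the whole list of heat shock and chaperone genes, 8 of 44 tested members had the higher mammary change and 0 the lower one. Among all genes the shares were 0.467% and 0.755%. The median difference of the list was 0.49, beside -0.02 for all genes. It lay above 0 for 39 of the 44 members, and for 4455 of all 10069 genes. In mammary gland 27 members rose, and in hypothalamus 3, or 26 and 16 when each tissue was fitted alone, beside 6.85% and 0.0795% of all genes, or 3.32% and 0.854%. The list count was 13 with dam pairing, 6 with a lymphocyte marker score in the model and 4 without the 5 lymphocyte-rich glands, where the median was 0.21. In libraries numbered 1 to 3 alone it was 0, with a median of 0.24, and in those numbered 4 to 8 it was 14, with a median of 0.53. The latter set is the larger and holds all 5 lymphocyte-rich glands. The members were chosen with earlier results of these data known. The chaperonin subunits Cct2 to Cct8 and Tcp1 were among those whose difference did not pass.

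**Figure D2:**
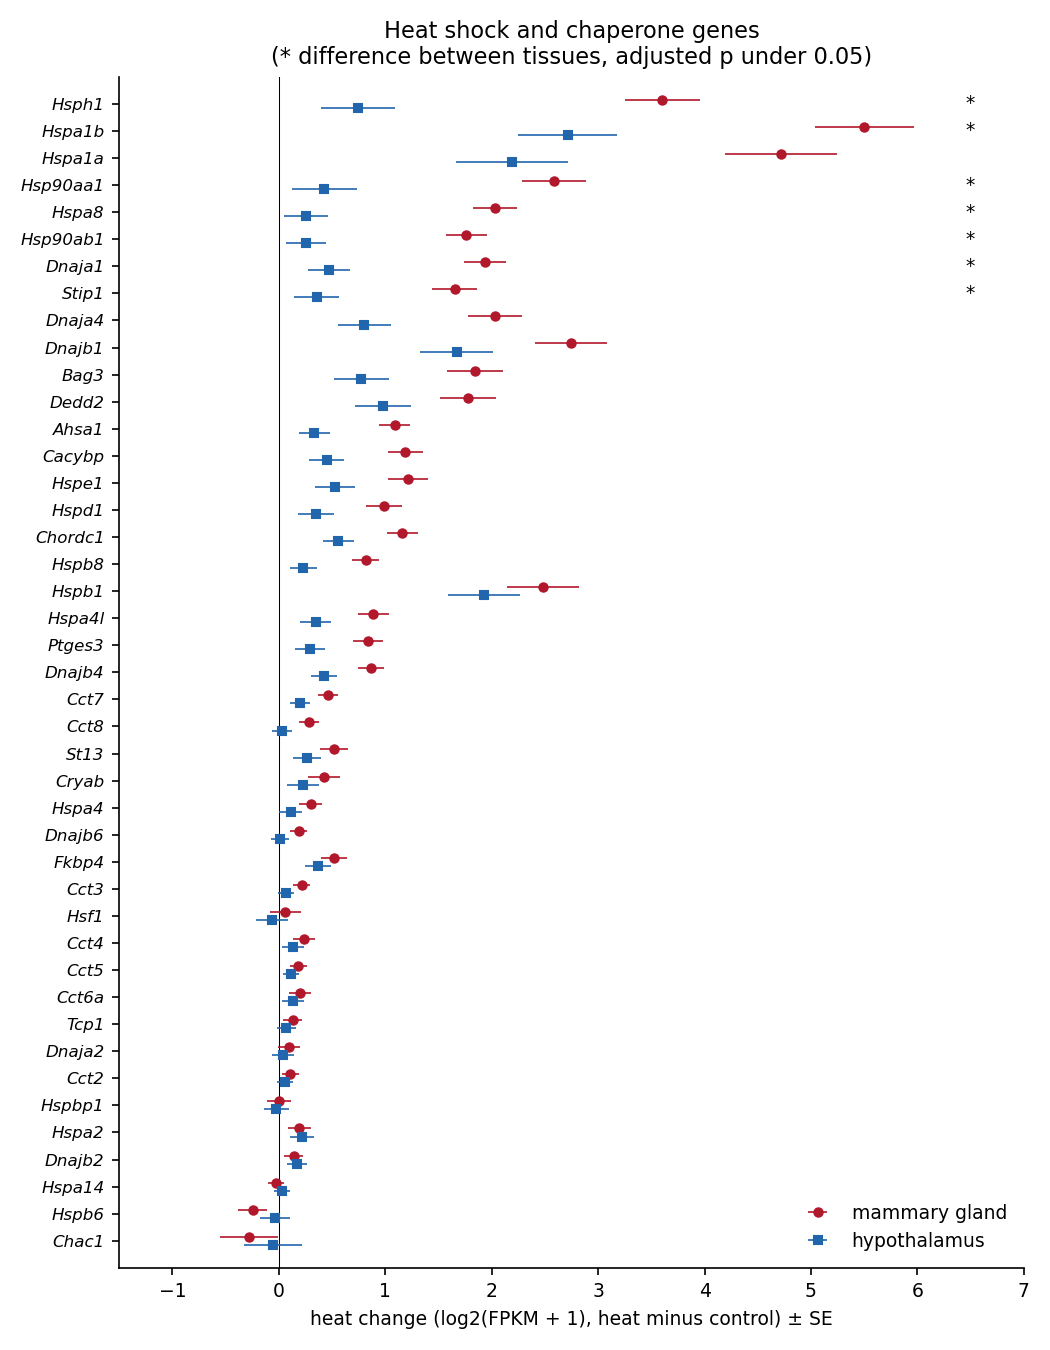
Heat change (x axis, heat minus control on the log2(FPKM + 1) scale, with its standard error) of 43 of the 44 tested heat shock and chaperone genes in mammary gland (red circles) and hypothalamus (blue squares), ordered by their difference. The 7 starred genes have a difference past the threshold. The hypothalamic values exceed 1 only for Hspa1b, Hspa1a, Hspb1 and Dnajb1, at 1.67 to 2.71.

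Other chaperones rose in both tissues, and the difference did not pass. Hspb1, the small heat shock protein HSP27, measured 59.7, 161 and 586 FPKM in heated and 22.5, 32.1 and 63.9 FPKM in control mammary glands, and 13.6, 24.6 and 62.6 FPKM in heated and 4.29, 6.43 and 8.80 FPKM in control hypothalami. Its changes were 2.48 ± 0.34 and 1.93 ± 0.34 in mammary gland and hypothalamus, and the 95% interval of the difference was -0.42 to 1.52, too wide to call them alike. Without the lymphocyte-rich glands the difference was -0.24, which did not pass either. Dnajb1, an HSP40 that also restrains heat shock factor 1, measured 32.2, 109 and 451 FPKM in heated and 13.4, 15.1 and 23.0 FPKM in control mammary glands, and 38.4, 61.6 and 129 FPKM in heated and 18.3, 19.8 and 27.1 FPKM in control hypothalami. Its changes were 2.74 and 1.67, with an interval of 0.09 to 2.06 (limma adjusted p = 0.3571).

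A similar change in both tissues, meaning that both changes passed and the 95% interval of the difference stayed within 0.5 of 0, was found for 3 genes, or for 10 when each tissue was fitted alone. Serpinh1, the collagen chaperone HSP47 of the endoplasmic reticulum, measured 25.3, 37.9 and 60.2 FPKM in heated and 13.8, 18.8 and 35.4 FPKM in control mammary glands. In hypothalamus it measured 8.95, 11.6 and 19.2 FPKM with heat and 4.72, 6.20 and 8.31 FPKM without. It rose by 0.94 ± 0.17 in mammary gland and by 0.94 ± 0.17 in hypothalamus, with an interval of -0.49 to 0.49. Ccdc117 rose by 1.04 ± 0.14 and 1.06 ± 0.14, with no overlap between heated and control libraries in either tissue. Heatr3, whose human counterpart helps bring a ribosomal protein into the nucleus, fell in both, by 0.47 ± 0.07 in mammary gland and 0.34 ± 0.07 in hypothalamus, also with no overlap.

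Heated libraries of the same number, taken to share a dam, were set side by side for 3 genes. Same-numbered heated and control hypothalami, which do not share a dam, also correlated, at up to 0.720. Across the 8 heated dams so paired, mammary and hypothalamic log2 levels of Hspa1b correlated with r = 0.70 (exact permutation p = 0.0613) and rho = 0.50 (p = 0.216). Without the 2 dams farthest from the hypothalamic median, r was 0.02. For Hsph1 r was 0.51 (exact permutation p = 0.211) and rho 0.52 (p = 0.197), and r was 0.66 without 2 dams. For Tsc22d3 r was 0.63 (exact permutation p = 0.0887) and rho 0.50 (p = 0.216), and r was 0.45 without 2 dams. None passed, the adjusted p over the 3 relations being 0.133 to 0.211 for r and 0.216 for rho.

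A pair of glucocorticoid targets also had the higher mammary change. Tsc22d3, which encodes the anti-inflammatory protein GILZ, measured 59.7, 97.8 and 163 FPKM in heated and 9.65, 18.3 and 31.9 FPKM in control mammary glands, against 15.6, 17.6 and 25.1 FPKM and 11.6, 13.9 and 15.4 FPKM in heated and control hypothalami. Heated and control libraries did not overlap in either tissue. The change was 2.29 ± 0.19 in mammary gland and 0.38 ± 0.19 in hypothalamus, and the difference 1.91 ± 0.27 (limma adjusted p = 0.000256). Ddit4, an inhibitor of the growth kinase mTORC1, measured 91.9, 175 and 376 FPKM in heated and 14.8, 31.3 and 82.2 FPKM in control mammary glands, and 23.9, 29.6 and 43.3 FPKM in heated and 20.3, 23.7 and 28.3 FPKM in control hypothalami. Its difference was 2.08 ± 0.39 (limma adjusted p = 0.0041), and 1.66 without the 5 lymphocyte-rich glands (adjusted p = 0.086).

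The glucocorticoid list as a whole did not share this. Of 27 tested members, 2 had the higher mammary change (Tsc22d3 and Ddit4) and 1 the lower, beside 0.467% and 0.755% of all genes. The lower one was Sdc4, a heparan sulfate proteoglycan, with -0.53, a call lost without the lymphocyte-rich glands. The median difference was 0.14. In mammary gland 10 members rose and 2 fell (7.06% of all genes fell), or 7 and 1 with that tissue fitted alone (2.76%), and in hypothalamus 0 rose and 0 fell (0.0199%) in the fit of 32 libraries and 4 rose in its own. Fkbp5, which damps the glucocorticoid receptor, rose by 0.87 ± 0.13 in mammary gland and changed by 0.32 ± 0.13 in hypothalamus, and the difference did not pass (limma adjusted p = 0.1631). Sgk1, a kinase that regulates sodium channels, had changes of -0.59 ± 0.39 and 0.36 ± 0.39 in mammary gland and hypothalamus, neither past the threshold.

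Bcl6, a transcriptional repressor, had the smallest adjusted p of all. Its level was 4.50, 9.69 and 17.5 FPKM in heated and 0.805, 1.46 and 1.95 FPKM in control mammary glands, and 2.01, 3.08 and 4.20 FPKM in heated and 1.80, 2.10 and 2.63 FPKM in control hypothalami. Its median FPKM without heat was the lower in mammary gland, and with heat the higher there, though levels are not matched between tissues. The difference was 1.77 ± 0.22 (limma adjusted p = 3e-05), 1.60 without the lymphocyte-rich glands (adjusted p = 0.0012), and past the threshold in each of the 32 fits that left out 1 library.

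Other regulators differed by 1.27 to 2.11. Spsb1, which targets nitric oxide synthase for degradation, measured 3.63, 18.1 and 43.0 FPKM in heated and 1.63, 2.48 and 3.45 FPKM in control mammary glands, and 1.44, 1.80 and 2.79 FPKM in heated and 1.32, 1.64 and 2.09 FPKM in control hypothalami, a difference of 2.11 ± 0.37 (limma adjusted p = 0.002). Zfp36l2, which promotes decay of messenger RNAs with AU-rich elements, measured 33.7, 115 and 263 FPKM in heated and 15.3, 23.0 and 36.0 FPKM in control mammary glands, and 7.31, 10.0 and 17.0 FPKM in heated and 7.11, 9.56 and 12.3 FPKM in control hypothalami, a difference of 2.02 ± 0.37 (limma adjusted p = 0.0029). Heated and control hypothalami overlapped for both. Without the lymphocyte-rich glands Zfp36l2 differed by 1.49 (adjusted p = 0.0686) and Spsb1 by 1.59 (adjusted p = 0.0245). Txnip, which inhibits thioredoxin and glucose uptake, measured 232, 636 and 1053 FPKM in heated and 45.1, 121 and 334 FPKM in control mammary glands, and 4.91, 7.15 and 8.43 FPKM in heated and 3.50, 5.57 and 6.88 FPKM in control hypothalami. Its difference was 1.93 ± 0.42 (limma adjusted p = 0.0186), and 1.37 without the lymphocyte-rich glands (adjusted p = 0.2126), with 19.4% of its exon length shared with an antisense gene. P4ha1, an enzyme of collagen hydroxylation, differed by 1.27 ± 0.33 (limma adjusted p = 0.0424), but its difference was 0.56 without the 5 lymphocyte-rich glands (adjusted p = 0.39), and its call was lost in 24 of the 32 fits that left out 1 library.

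**Figure D3:**
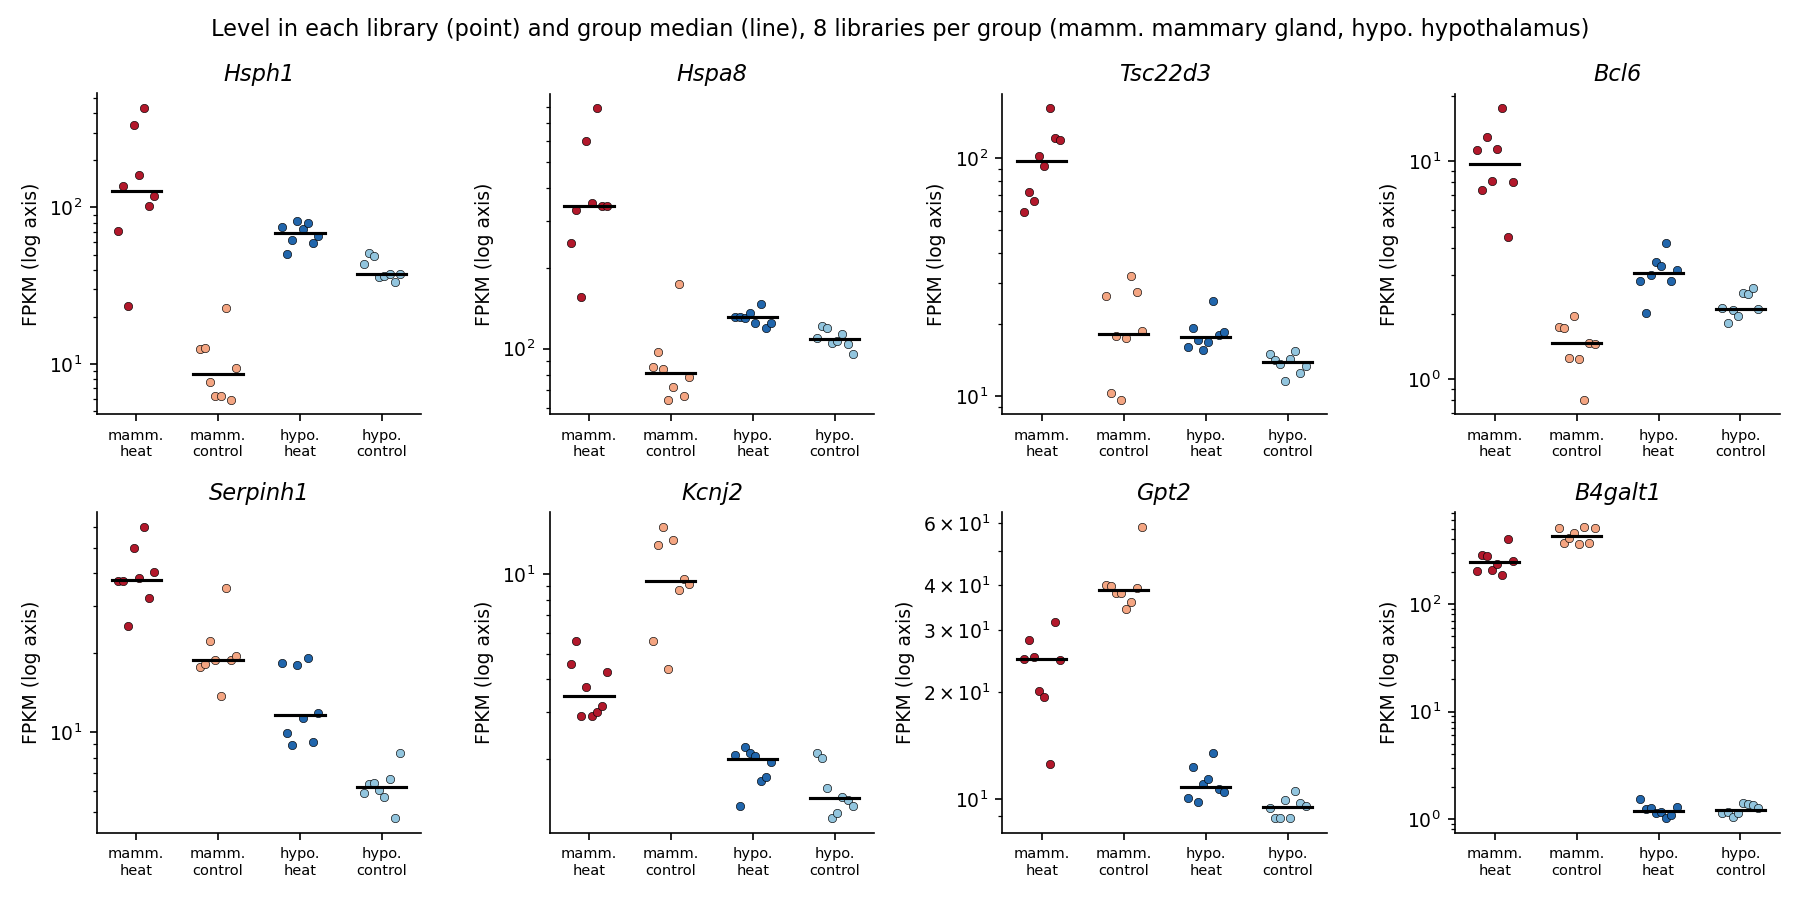
FPKM in each library (points, log axis, scaled within tissue) and the group median (lines) for 8 genes in heated and control mammary gland and heated and control hypothalamus, 8 libraries per group. Hsph1, Hspa8, Tsc22d3 and Bcl6 separate heated from control glands by more than they do in hypothalamus. Serpinh1 shifts by 0.94 log2 units in both tissues, and Kcnj2, Gpt2 and B4galt1 are lower in heated glands.

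Smaller differences above 0 were found too. Tra2a, a splicing regulator, rose by 0.79 ± 0.08 in mammary gland and changed by 0.16 ± 0.08 in hypothalamus, and the difference of 0.63 ± 0.11 (limma adjusted p = 0.0019) was 0.54 without the lymphocyte-rich glands (adjusted p = 0.037). It was 1 of 29 members of the list of cold-inducible and splicing genes that passed, beside 1.22% of all genes. Tob2, which recruits the deadenylation machinery, differed by 0.76 ± 0.19 (limma adjusted p = 0.0421), and its call was lost in 20 of the 32 fits that left out 1 library and without the lymphocyte-rich glands (0.71, adjusted p = 0.1407). Mcm7, a subunit of the replicative helicase, differed by 0.50 ± 0.11 (limma adjusted p = 0.0186), 1 of 7 tested replication genes to pass. All 7 lay above 0, as did 4455 of all 10069 genes, and the median difference of the 7 was 0.40. It was 0.24 without the lymphocyte-rich glands and 0.22 with the lymphocyte marker score, and Mcm7 passed in neither (0.37, adjusted p = 0.1357, and 0.40, adjusted p = 0.0608). Chosen after their values were seen, Sirt1, a deacetylase, differed by 0.44, Chka, which starts phosphatidylcholine synthesis, by 0.82 and Kmt2a, a histone methyltransferase, by 0.78, and none of the 3 passed without the lymphocyte-rich glands.

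The 76 genes with the lower mammary change all had a mammary change below 0. In the fit of 32 libraries 71 of them fell there past the threshold and not in hypothalamus, and 64 did with each tissue fitted alone. The largest difference, -2.95, was that of Mir6993, a microRNA precursor of 65 bases that lay under the level of 3 fragments in 9 mammary and 11 hypothalamus libraries and is not described further. Kcnj2, an inward rectifier potassium channel, measured 2.90, 3.45 and 5.57 FPKM in heated and 4.37, 9.40 and 15.2 FPKM in control mammary glands, against 1.32, 2.00 and 2.22 FPKM and 1.19, 1.41 and 2.10 FPKM in heated and control hypothalami. Both tissues overlapped between heat and control, and the difference was -1.32 ± 0.23 (limma adjusted p = 0.0018). Gpt2, the mitochondrial alanine aminotransferase, measured 12.6, 24.8 and 31.5 FPKM in heated and 34.3, 38.8 and 58.6 FPKM in control mammary glands, with no overlap, which held for 0.427% of genes in that direction. In hypothalamus it measured 9.85, 10.9 and 13.5 FPKM with heat and 8.85, 9.52 and 10.6 FPKM without. The difference of -1.01 ± 0.17 (limma adjusted p = 0.0011) was -0.78 without the lymphocyte-rich glands (adjusted p = 0.01).

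Other genes with the lower mammary change encode receptors and signalling proteins. Adra2c, the alpha-2C adrenergic receptor, measured 1.02, 2.49 and 4.05 FPKM in heated and 3.99, 6.66 and 11.2 FPKM in control mammary glands, and 3.24, 5.48 and 9.51 FPKM in heated and 3.12, 5.36 and 7.39 FPKM in control hypothalami, where the medians were close. Its difference was -1.25 ± 0.27 (limma adjusted p = 0.0173), and -1.33 without the lymphocyte-rich glands (adjusted p = 0.0681). Spry2, which restrains signalling from growth factor receptors, fell by 0.54 ± 0.13 in mammary gland and had a hypothalamic change of 0.44 ± 0.13. That hypothalamic change did not pass (limma adjusted p = 0.2477, or 0.0617 with hypothalamus fitted alone). Heated and control hypothalami overlapped, although 8 of 8 heated libraries lay above the control median. The difference was -0.98 ± 0.18 (limma adjusted p = 0.0034). Irs1, the adaptor of the insulin receptor, measured 6.02, 6.78 and 9.57 FPKM in heated and 8.53, 10.5 and 16.6 FPKM in control mammary glands, and 1.40, 1.60 and 2.99 FPKM in heated and 1.18, 1.31 and 1.48 FPKM in control hypothalami. Its difference was -0.81 ± 0.16 (limma adjusted p = 0.0081), and -0.82 without the lymphocyte-rich glands (adjusted p = 0.059), with 30.9% of its exon length shared with an antisense gene.

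Pim1, a kinase that cytokines induce through STAT5, fell by 0.96 ± 0.17 in mammary gland, and its difference was -1.02 ± 0.24 (limma adjusted p = 0.0246). The difference was -0.20 in libraries numbered 1 to 3 and -1.52 in those numbered 4 to 8. Gjb2, the gap junction protein connexin 26, differed by -1.14 ± 0.30 (limma adjusted p = 0.0498), and its call was lost in 23 of the 32 fits that left out 1 library. Cldn12, a claudin, measured 5.66, 6.59 and 8.98 FPKM in heated and 10.0, 12.3 and 21.7 FPKM in control mammary glands with no overlap, and 6.45, 7.40 and 9.23 FPKM in heated and 6.12, 7.74 and 8.78 FPKM in control hypothalami. Its difference was -0.93 ± 0.19 (limma adjusted p = 0.0102). It was 1 of 7 tested tight junction genes to pass, beside 1.22% of all genes. All 7 lay below 0, while 4455 of all 10069 genes lay above. Arl4a, a small GTPase, differed by -0.93 ± 0.23 (limma adjusted p = 0.0394), and Ndrg1, a stress-responsive gene that hypoxia induces, by -0.92 ± 0.22 (limma adjusted p = 0.0292). The call of Arl4a was lost in 14 and that of Ndrg1 in 8 of the 32 fits that left out 1 library. None of Pim1, Gjb2, Cldn12, Arl4a and Ndrg1 passed without the lymphocyte-rich glands, with differences of -0.80, -0.82, -0.75, -0.94 and -0.69 (adjusted p = 0.1596 to 0.4047).

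A few genes of milk synthesis passed, although hypothalamus held little of their RNA. B4galt1, the galactosyltransferase of lactose synthase, measured 188, 244 and 399 FPKM in heated and 365, 432 and 525 FPKM in control mammary glands, and 1.02, 1.20 and 1.55 FPKM in heated and 1.05, 1.22 and 1.40 FPKM in control hypothalami. It fell by 0.80 ± 0.11 in mammary gland, and the difference was -0.79 ± 0.15 (limma adjusted p = 0.0059). Xdh, xanthine dehydrogenase, which also coats the secreted milk fat globule, measured 734, 849 and 1292 FPKM in heated and 935, 1133 and 1507 FPKM in control mammary glands, and 1.05, 1.71 and 2.99 FPKM in heated and 0.658, 1.08 and 1.56 FPKM in control hypothalami. Neither tissue's change passed, and the difference of -0.76 ± 0.19 (limma adjusted p = 0.0354) joined -0.35 in mammary gland to 0.41 in hypothalamus. Plin2, which coats lipid droplets, differed by -0.48 ± 0.12 (limma adjusted p = 0.04), from -0.32 and 0.17. Its call was lost in 20 of the 32 fits that left out 1 library, and that of Xdh in 13. Without the lymphocyte-rich glands none of the 3 passed, with differences of -0.64, -0.68 and -0.38 for B4galt1, Xdh and Plin2.

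Milk genes could otherwise hardly be compared, since 5 of 16 reached the level needed in hypothalamus and none of the 5 passed with limma or limma-voom, or had an unadjusted p under 0.05. The 5 included caseins whose RNA in hypothalamus came mostly from 1 library. The casein sum was 93.0 FPKM in heated hypothalamus 2, at most 4.57 FPKM in the other 15 hypothalamus libraries and 183919 to 373378 FPKM in mammary libraries. Csn1s2a, a casein, measured 0.0777, 0.279 and 32.9 FPKM in heated and 0.0872, 0.257 and 0.513 FPKM in control hypothalami. Of 25 fatty acid and triglyceride genes 2 had the lower mammary change and none the higher (0.755% and 0.467% of all genes). Their median difference was 0.05. Of 12 lactose and glucose supply genes 1 had the lower change, and of 12 genes of the prolactin receptor pathway 1, Irs1. Among 26 cholesterol genes none passed with limma or limma-voom and 5 had an unadjusted p under 0.05, with a median difference of -0.16. Cyp51, a sterol demethylase, had a difference of -0.42 that did not pass in the fit of 32 libraries (limma adjusted p = 0.2477). It passed with dam pairing (adjusted p = 0.0183) and when the model separated libraries 1 to 3 from 4 to 8 (adjusted p = 0.0339). Without the lymphocyte-rich glands it did not (-0.38, adjusted p = 0.5883).

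**Figure D4:**
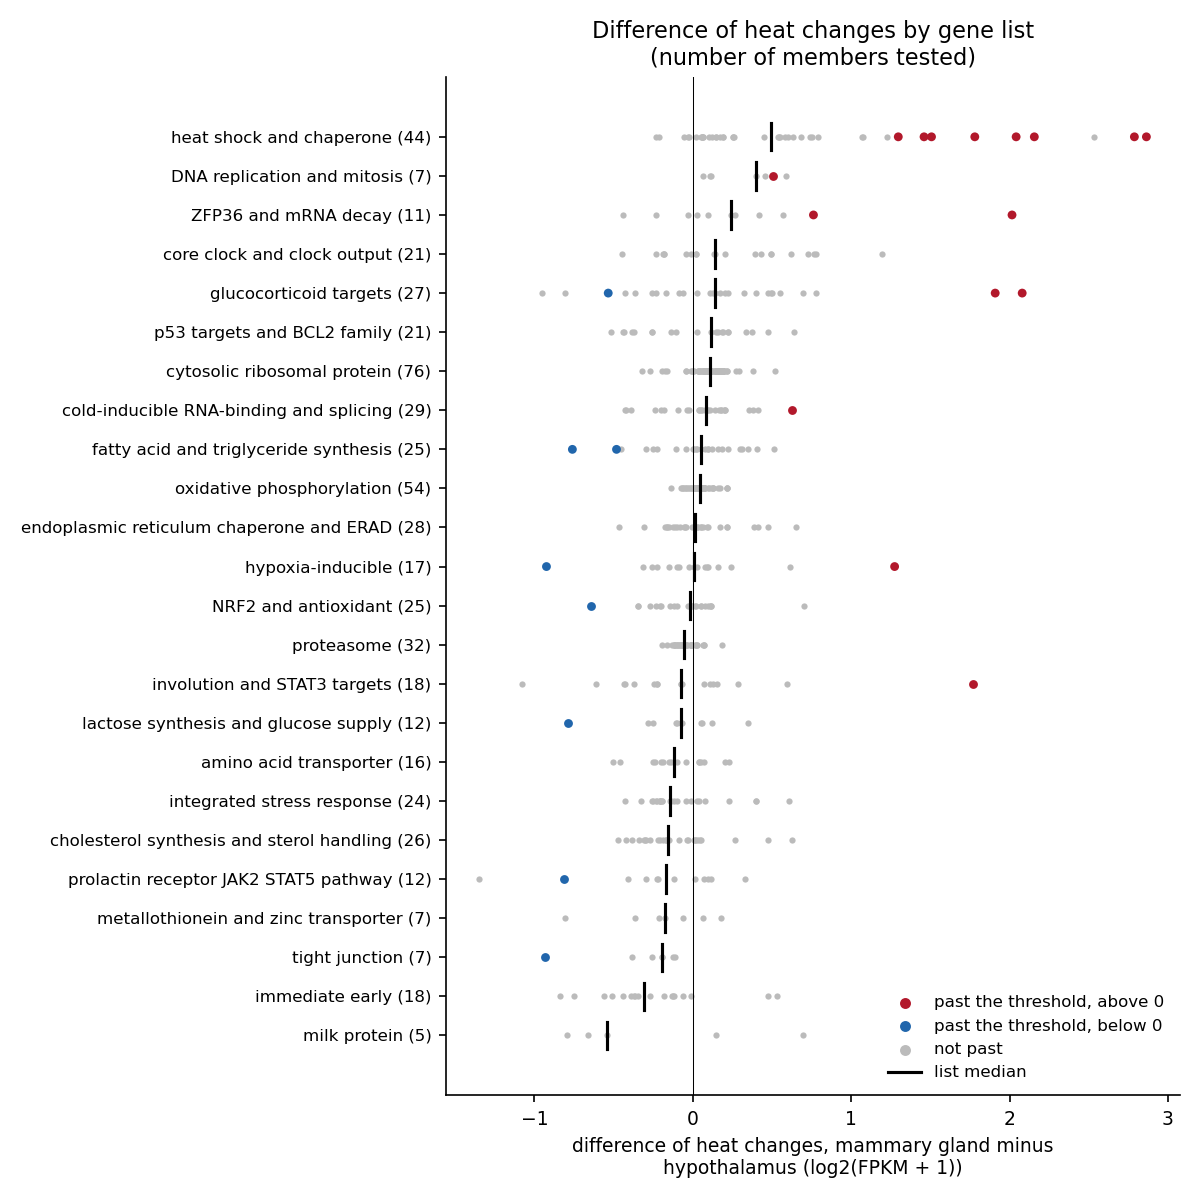
Difference of heat changes, mammary gland minus hypothalamus (x axis, log2(FPKM + 1) scale), of every tested member of 24 gene lists (points) with the list median (black bars). Red and blue points passed the threshold above and below 0. The heat shock and chaperone list holds 8 of the points above 0, and its median of 0.49 is the highest.

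The immediate early genes, a rapid and brief transcriptional response to stimulation, stood on the other side without passing. None of 18 passed with limma or limma-voom, and 1 had an unadjusted p under 0.05. Of the 18, 2 lay above 0, beside 4455 of all 10069 genes, and the median difference was -0.31. Without the lymphocyte-rich glands the median was -0.56 and 1 passed, Egr1 (-1.53, adjusted p = 0.0452). Fos measured 6.21, 12.9 and 17.3 FPKM in heated and 3.89, 6.25 and 11.02 FPKM in control mammary glands, and 4.61, 8.51 and 42.1 FPKM in heated and 1.75, 3.09 and 4.32 FPKM in control hypothalami. It rose in both, by 0.96 ± 0.27 in mammary gland and 1.47 ± 0.27 in hypothalamus, and the 95% interval of the difference was -1.30 to 0.28. Heated hypothalamus 4, at 42.1 FPKM, was the highest. Egr1 had changes of 0.43 ± 0.28 in mammary gland and 1.18 ± 0.28 in hypothalamus and an interval of -1.55 to 0.06.

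None of the 21 tested clock genes, which keep daily rhythms, passed for the difference with limma or limma-voom, while 4 had an unadjusted p under 0.05. In the fit of 32 libraries 9 of them rose in mammary gland and 0 in hypothalamus, beside 6.85% and 0.0795% of all genes. With each tissue fitted alone 3 rose in mammary gland and 2 in hypothalamus, beside 3.32% and 0.854%, and the median difference was 0.14. Per2, a core repressor of the clock, measured 3.97, 17.2 and 24.6 FPKM in heated and 0.884, 4.22 and 12.9 FPKM in control mammary glands, and 5.67, 7.93 and 9.92 FPKM in heated and 4.04, 4.86 and 6.93 FPKM in control hypothalami. Its difference was 1.20 ± 0.43 (limma adjusted p = 0.2086). Nr1d1, a repressor under clock control, differed by 0.62 ± 0.23, Per1 by 0.49 ± 0.33 and Dbp by 0.73 ± 0.38, none past the threshold.

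Genes of the unfolded protein and integrated stress responses gave no call. Of 28 endoplasmic reticulum genes and 24 integrated stress response genes none passed with limma or limma-voom, and 4 of each had an unadjusted p under 0.05. Herpud1, a degradation factor of the endoplasmic reticulum, had changes of 1.16 ± 0.14 and 0.50 ± 0.14 in mammary gland and hypothalamus, and its difference of 0.65 did not pass (limma adjusted p = 0.1025). It did with dam pairing (adjusted p = 0.0411) and in libraries numbered 4 to 8 alone (0.86, adjusted p = 0.0181). Of the 32 fits that left out 1 library it passed in 1, without heated mammary gland 3 (0.81, adjusted p = 0.000414). The difference did not pass without the lymphocyte-rich glands (0.44, adjusted p = 0.5804) or with the lymphocyte marker score (0.57, adjusted p = 0.2725). Hspa5, the main chaperone of that compartment, had an interval of -0.40 to 0.28. Atf4, the central factor of the integrated stress response, had changes of 0.14 ± 0.09 and 0.39 ± 0.09, and Ddit3, a factor it induces, 0.79 ± 0.13 and 0.19 ± 0.13. Cirbp, a cold-inducible RNA-binding protein, fell by 0.70 ± 0.16 in mammary gland, had -0.46 ± 0.16 in hypothalamus (adjusted p = 0.0136 in its libraries alone), and an interval of -0.70 to 0.23.

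Among the remaining lists, none of 32 proteasome, 76 cytosolic ribosomal protein, 54 oxidative phosphorylation, 16 amino acid transporter, 21 p53 and BCL2 family or 7 metallothionein and zinc transporter genes passed with limma or limma-voom. At an unadjusted p under 0.05 there were 2 amino acid transporters, 3 p53 and BCL2 family genes and 0 of the other lists. Ribosomal protein genes had a median difference of 0.11, with 67 of 76 above 0, beside 4455 of all 10069 genes. The median was 0.01 with quantile normalization, -0.11 in libraries numbered 1 to 3 and 0.24 in those numbered 4 to 8, so its direction depended on the libraries used, and their RNA can be split with pseudogene copies. Of 25 NRF2 and antioxidant genes 1 passed, Srxn1, which reduces peroxiredoxins, with -0.64 ± 0.17 (limma adjusted p = 0.045), a call lost in 26 of the 32 fits that left out 1 library and without the lymphocyte-rich glands (-0.42, adjusted p = 0.2666). Of 17 hypoxia-inducible genes P4ha1 had the higher and Ndrg1 the lower mammary change, and of 18 involution genes 1, Bcl6, the higher. Among all genes 0.467% had the higher and 0.755% the lower mammary change.

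The lymphocyte-rich glands bear on many of these calls. With a lymphocyte marker score in the model 46 genes passed, 45 of them among the 123, and without the 5 glands 30 passed, 26 of them among the 123. Passing in both were 21 of the 123, 10 above 0 and 11 below. Of the 28 named genes past the threshold, 10 passed in both, which were Hsph1, Hsp90aa1, Spsb1, Tsc22d3, Hspa8, Bcl6, Tra2a, Kcnj2, Gpt2 and Spry2. The difference of Hsph1 was 1.93 without those glands, that of Hsp90aa1 1.34 and that of Tsc22d3 1.60. In hypothalamus T cell markers summed to 4.77 to 7.20 FPKM with heat and 4.88 to 6.68 FPKM without.

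**Figure D5:**
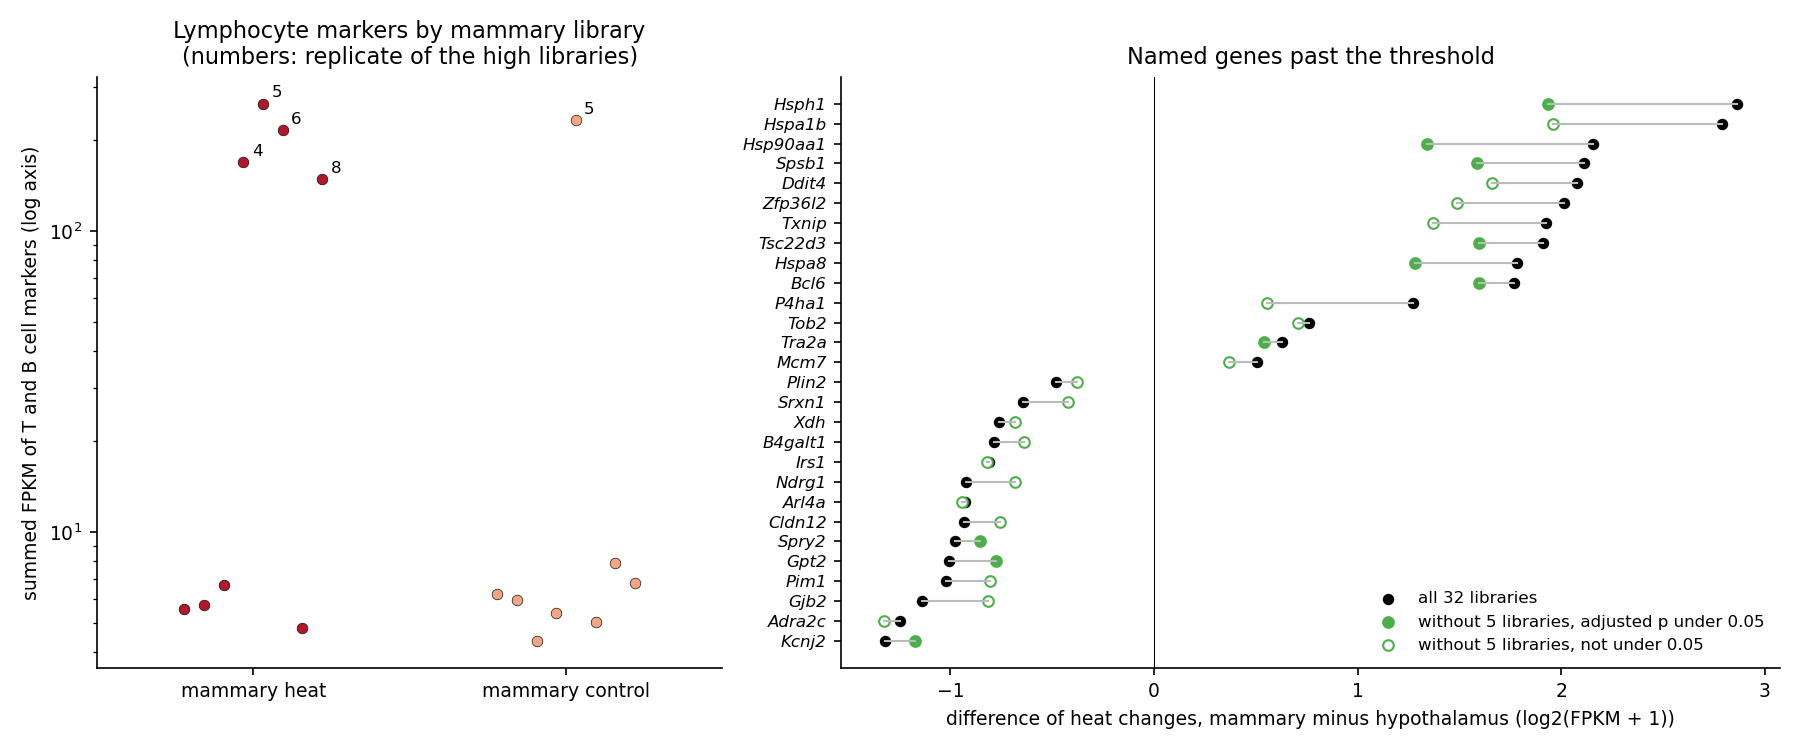
Left, summed FPKM of T and B cell markers (log axis) in each mammary library, with the replicate numbers of the 5 high ones. Right, difference of heat changes (x axis, log2(FPKM + 1) scale) of the 28 named genes past the threshold, with all 32 libraries (black) and without those 5 (green, filled where the adjusted p was under 0.05). No difference changed sign, and 10 of the 28 green points are filled.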

How the data were processed

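Total RNA of mammary gland and hypothalamus was sequenced by the authors, 8 libraries per tissue and treatment, grouped by the titles in the labels. Each of these libraries has 1 FPKM value per gene, as the authors deposited it. HISAT2 2.0.5, featureCounts 1.5.0-p3 and DESeq2 1.16.1 are named in the submitters' processing notes. Whether strand was used, and how reads aligning to several places were treated, is not given in the sources used here. Fragments were recovered from the FPKM steps with GENCODE exon lengths (94.7 to 97% of values under 50 fragments were whole within 0.02). For 3 fragments in a gene of 1 kb the level was 0.322 to 0.6 FPKM in mammary and 0.105 to 0.143 FPKM in hypothalamus libraries, which covers counting error only.

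Each library was scaled by its median ratio to the tissue's geometric mean (factors 0.976 to 1.023). Of the 58913 genes, 10069 with mean FPKM of at least 1 in both tissues were kept, 9865 of them with a symbol. log2(FPKM + 1) of 32 libraries went into limma 3.58.1 (R 4.3.3) with 4 group means and empirical Bayes with trend. Tests were 2-sided, and p-values were adjusted by Benjamini-Hochberg and called under 0.05. Fold changes are on that scale, which makes those of genes near 1 FPKM too small. The labels do not say which libraries share a dam, but both tissues came from the same dams by the design text. Within each treatment, mammary and hypothalamic libraries of the same number deviated together (correlation 0.145 to 0.380 in 8 heated pairs and 0.198 to 0.531 in 8 control pairs), so the number was taken to pair them. Other steps ran in Python 3.11.15 (pandas 2.3.3, numpy 2.4.6 and scipy 1.17.1). The fit was also run on simulated data with independent noise. These held no dam pairs, library sets or lymphocyte-rich glands, so the run says nothing about those.

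Members, gene lists, tests and alternatives were chosen with earlier results of these data known, so no list or count is independent support. Genes were named by rule: the 8 largest positive and 8 largest negative differences past the threshold with the same sign in libraries 1 to 3 and 4 to 8; from each list the 2 members past the threshold of smallest adjusted p, or else 1 by the same order; a set of heat shock, clock, glucocorticoid and stress genes; and the genes of similar change. Unnamed and predicted genes, pseudogenes and small RNA genes were left out. Of the genes so chosen, 1 is not reported here. Of the set, Slc1a5 was not tested, with a mean of 0.843 FPKM in hypothalamus. The motif counts used 1 listed start per gene.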

Additional observations from a re-analysis of the deposited data

Results flagged for a closer look

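Heat changes differed between mammary gland and hypothalamus for 123 genes by the test of the difference itself, which is the comparison described above.

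In 15 of 240 groups of 8 libraries (60 named genes, 4 groups each), 1 library lay far from the other 7, where chance gives about 1 in 20. The gap to the nearest library is given as a share of the range of the group, both on the log2(FPKM + 1) scale. Control mammary gland 6 was the highest for Hsp90aa1 (110 FPKM, share 0.563), Hspa8 (175 FPKM, share 0.590) and Hspb1 (63.9 FPKM, share 0.543), all in the heat shock list. Heated mammary gland 3 was the lowest for Herpud1 (13.9 FPKM, share 0.603) and Per2 (3.97 FPKM, share 0.690). Heated mammary gland 1 was the lowest for Fos (6.21 FPKM, share 0.541), and control mammary gland 8 the highest for Gpt2 (58.6 FPKM, share 0.707). Among heated hypothalami, number 4 was the highest for Irs1 (2.99 FPKM, share 0.796) and Egr1 (31.1 FPKM, share 0.568), number 1 the highest for Gjb2 (8.00 FPKM, share 0.772) and the lowest for Sgk1 (6.33 FPKM, share 0.595), number 2 the highest for Csn1s2a (32.9 FPKM, share 0.745), number 5 the lowest for Mt2 (2.08 FPKM, share 0.582) and number 6 the highest for Tsc22d3 (25.1 FPKM, share 0.557). Control hypothalamus 1 was the lowest for Egr1 (2.64 FPKM, share 0.531).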

How the results depend on the processing

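Counts are given in the order: genes whose heat changes differed, those above 0 and those below 0, those past the threshold in mammary gland alone, and then all genes past it in mammary gland, in hypothalamus and with a similar change in both. They were 123, 47, 76, 117, 1401, 10 and 3. Unscaled FPKM, a quantile normalization, other pseudocounts (0.1 and 0.5), no filter, array weights, a robust prior, all 48 libraries in 1 fit, libraries 4 to 8 alone and limma-voom kept the first count within 1.5 times (107 to 149). The genes changed more than the count did, since 58 of the 123 passed without a filter and 68 in libraries 4 to 8 alone, against 102 to 121 in the other settings of that group. The largest relative moves among them were in hypothalamus, with 17 genes at a pseudocount of 0.1, 69 without a filter, 74 with array weights, 20 in libraries 4 to 8 and 36 with voom, and in similar changes, with 5, 5, 17 and 9 (pseudocount 0.1, no filter, weights, voom). Array weights gave 911 genes in mammary gland, and each tissue fitted alone 612 in mammary gland and 98 in hypothalamus.

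A mean of at least 5 FPKM, which leaves fewer genes to test, gave 50, 24, 26, 48 and 515 for the first 5 counts. A minimum absolute difference of 1 gave 30, 23 and 7. Libraries 1 to 3 alone, with 3 per group, gave 5, 2, 3, 5, 348, 0 and 0. The dam block, treatment and number shared by the tissues, gave 216, 92 and 124, and it brought in Hspa1a, Herpud1, Cyp51 and Bak1 and lost none of the named calls. A block for the number within each tissue gave 310, 131, 179, 298, 2212, 26 and 11. The labels do not pair heat and control libraries of the same number, and not every pair correlated above 0.1: 4 of 8 mammary and 7 of 8 hypothalamic pairs did, at up to 0.362 and 0.720, and 3 and 2 of 8 correlated best with their own number. A term for libraries 1 to 3 against 4 to 8 gave 321, 122, 199, 301, 2269, 39 and 15, with all 123 genes among the 321. The lymphocyte score gave 46, 21, 25, 45, 770, 22 and 5, and leaving out the 5 lymphocyte-rich glands gave 30, 12, 18, 26, 360, 41 and 8. Both terms together gave 198, 85, 113, 182, 1442, 49 and 13. For these settings the cause was not tested.

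With each library left out in turn the counts ranged over 83 to 200, 35 to 88, 46 to 112, 81 to 187, 1063 to 1606, 6 to 19 and 1 to 6. The count of 200 came without heated mammary gland 3 and that of 83 without control hypothalamus 6, and 73 of the 123 genes passed in all 32 fits. No named gene past the threshold changed sign in any setting. Voom, each tissue fitted alone and both terms together were added after the data were seen.

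Depth limits low genes, since 3 fragments stand for a higher FPKM in mammary than in hypothalamus libraries. The p-values measure the spread between libraries.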
